A study of Mus musculus with 9 samples.

Results

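Kupffer cells are the resident macrophages of the liver. They sit in the sinusoids, take up particles, lipoproteins and dying cells from the blood, and depend on the receptor Csf1r and on signals from endothelial, stellate and hepatocyte neighbours. Their identity genes encode lectins and scavenger receptors that few other liver cells make, while other genes, such as those of C1q, are shared with macrophages in general. The transcripts described here were taken by name from the deposited gene table: Clec4f, Vsig4, Timd4, Marco, Cd5l, Adgre1, Csf1r, C1qa, C1qb and C1qc. All 10 were found, each in 1 row of the 28517 genes listed, and all 10 passed the filter on low counts, as did 18142 genes in total.

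All livers came from db/db mice, a leptin receptor mutant used as a model of obesity and type 2 diabetes, so the vehicle group carries that mutation too. PBS as vehicle, FGF19WT or FGF19ΔKLB was given for 12 weeks, with 3 libraries in each of the 3 groups. FGF19 is an intestinal hormone that acts on hepatocytes through FGFR4 and the co-receptor β-klotho. The labels give neither the sequence change of FGF19ΔKLB nor the age and sex of the mice. The labels do not say whether replicates are separate animals, so p-values measure the spread between these samples, which may be technical. RNA came from whole liver, so for every value below fewer Kupffer cells and less of a transcript per cell cannot be told apart.

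Library totals ran from 65.1 to 73.3 M counts. In low genes counts piled up in steps of 4, so that about 4 counts stand for 1 read pair and the totals for 16.3 to 18.3 M read pairs. FGF19WT libraries 2 and 3 stood apart from the other 7 in the whole transcriptome. On the first principal component, with 48.9% of the variance, they lay at 129.76 and 169.91, and the other 7 between −64 and −7.85. Fits, gene lists (mainly for FGF19WT), ranks and likeness are therefore also given without these libraries. Levels between libraries are CPM (counts scaled to library size with TMM factors), and levels between genes are FPKM, which is per transcript length.

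Levels were first read in the vehicle livers. Clec4f, a lectin known in mouse liver as a marker of Kupffer cells, was present in all 3 at 17.6 to 26.9 FPKM. It is itself a member, so its presence does not test whether the other members came from Kupffer cells. The order of the mean log2 level in vehicle was Cd5l, C1qb, C1qa, Clec4f, C1qc, Vsig4, Csf1r, Adgre1, Marco and Timd4. The first 3 had overlapping ranges, with Cd5l at 27.8 to 45.5 FPKM and C1qb at 27.7 to 46.2 FPKM. Clec4f and C1qc overlapped, as did C1qc and Vsig4. Csf1r, at 4.01 to 7.34 FPKM, lay below Vsig4 in each vehicle library. Adgre1 and Marco overlapped, and Timd4 was the lowest at 0.758 to 1.42 FPKM. With FGF19ΔKLB Clec4f moved up to rank 2, at 20.4 to 21.1 FPKM, ahead of C1qb and C1qa, whose ranges overlapped with it. With FGF19WT C1qb and C1qa ranked above Cd5l. FGF19WT library 1 alone had the vehicle order, while in FGF19WT libraries 2 and 3 C1qb, C1qa and C1qc held the first 3 ranks.

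Promoter windows from 250 bases before to 50 bases after the gene start were listed for 7 of the 10 genes in RefSeq (GRCm38.p6). The 250 bases before the start are shown for 2 C1q chains, whose levels moved closely together, and for Marco and Timd4, whose levels differed most from those of C1qb over the 9 libraries. Capitals mark GAGGAA or its reverse complement TTCCTC, the PU-box, a core sequence bound by PU.1, the myeloid factor encoded by Spi1. All 4 run 5′ to 3′ along the strand of the gene.
C1qb promoter, chr4:136886201-136886450, minus strand: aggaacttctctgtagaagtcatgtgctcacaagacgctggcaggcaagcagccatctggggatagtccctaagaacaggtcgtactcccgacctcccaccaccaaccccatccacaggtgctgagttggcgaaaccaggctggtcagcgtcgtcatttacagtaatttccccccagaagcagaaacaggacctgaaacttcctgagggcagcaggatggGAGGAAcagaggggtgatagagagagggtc
C1qc promoter, chr4:136892915-136893164, minus strand: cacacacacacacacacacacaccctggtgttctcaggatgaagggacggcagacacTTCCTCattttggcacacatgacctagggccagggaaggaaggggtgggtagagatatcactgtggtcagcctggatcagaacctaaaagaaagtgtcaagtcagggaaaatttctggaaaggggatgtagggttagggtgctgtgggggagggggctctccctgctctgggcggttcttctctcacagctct
Marco promoter, chr1:120505025-120505274, minus strand: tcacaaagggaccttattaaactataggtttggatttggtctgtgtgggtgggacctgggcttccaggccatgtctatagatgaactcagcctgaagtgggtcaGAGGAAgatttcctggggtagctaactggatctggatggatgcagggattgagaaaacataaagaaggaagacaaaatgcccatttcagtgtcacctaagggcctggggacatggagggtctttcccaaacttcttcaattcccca
Timd4 promoter, chr11:46810549-46810798, plus strand: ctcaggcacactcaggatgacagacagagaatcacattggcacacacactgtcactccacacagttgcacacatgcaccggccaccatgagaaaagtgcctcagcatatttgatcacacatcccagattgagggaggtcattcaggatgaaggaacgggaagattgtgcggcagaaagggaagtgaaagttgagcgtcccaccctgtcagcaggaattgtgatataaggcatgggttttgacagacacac

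The PU-box letters occurred on either strand in 5 of these 7 windows, those of C1qb, C1qc, Cd5l, Marco and Vsig4, and in 28.3% of 27025 promoters of the same length. Counted from the RefSeq start, they began at −30 in C1qb, −193 in C1qc and −146 in Marco, and they were not in the Timd4 window. The deposited start of C1qc, 136893065, lies inside the stretch shown, so its offset from that start is smaller. The E-box CACGTG was in 0 of the 7 and in 7.24% of all promoters. The MAF half-site TGCTGAC or its reverse complement was in 1 of the 7, that of Timd4, and in 4.58% of all. These are matches of letters and not measured binding.

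The scavenger and phagocytic receptors come first. Timd4 (chromosome 11, 46810800 to 46844332) encodes a receptor that binds phosphatidylserine on dying cells and marks long-lived resident macrophages. Its levels were 1.76, 2.05 and 3.12 CPM in vehicle and 2.77 CPM in FGF19WT library 1. It had 0 counts in FGF19WT libraries 2 and 3, where a count of 0 allows up to 0.148 and 0.174 CPM (3 read pairs, counting error only). With FGF19ΔKLB it stood at 2.95, 3.6 and 2.08 CPM, within or above the vehicle values. The 132 to 244 counts of vehicle are about 33 to 61 read pairs, the thinnest coverage among the 10.

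Marco (chromosome 1, 120474538 to 120505024), a scavenger receptor for bacteria and particles, was likewise near or at 0 in those libraries. Its levels were 2.91, 4.11 and 11 CPM in vehicle, and 3.72, 0.0987 and 0 CPM with FGF19WT. With FGF19ΔKLB they were 5.46, 4.1 and 1.46 CPM. Vehicle library 3 was far above the other vehicle libraries. Without it the log2 fold change of FGF19WT against vehicle was −1.47 in place of −2.24, and that of FGF19ΔKLB 0.06 in place of −0.71.

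Vsig4 (chromosome X, 96247203 to 96293438) encodes the complement receptor that captures C3b-coated particles from the blood. Vehicle libraries held 16.1, 22.3 and 24 CPM, FGF19WT libraries 19.2, 1.2 and 1.09 CPM and FGF19ΔKLB libraries 15.1, 20.2 and 15 CPM. FGF19WT library 1 lay within the vehicle range, and FGF19WT libraries 2 and 3 lay at 5.76% and 5.24% of the vehicle mean. With FGF19ΔKLB 2 of the 3 libraries were slightly below the lowest vehicle library.

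The lectin gene Clec4f (chromosome 6, 83644542 to 83656187) had 51.6, 47.8 and 67.3 CPM in vehicle. With FGF19WT it had 50.9, 5.27 and 1.55 CPM, and with FGF19ΔKLB 58.3, 58.7 and 64.8 CPM. It was the 1 member in which each FGF19ΔKLB library lay above each FGF19WT library. Among all genes tested, 7.15% were separated in that direction.

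Cd5l (chromosome 3, 87357881 to 87371073) encodes a secreted protein (also called AIM) that macrophages release and that travels in plasma on IgM. Its levels were 60.1, 95.3 and 93.7 CPM in vehicle, 66, 11.3 and 3.47 CPM with FGF19WT, and 50.1, 66.7 and 77.3 CPM with FGF19ΔKLB. FGF19WT libraries 2 and 3 were again the lowest, at 13.6% and 4.18% of the vehicle mean.

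**Figure D1:**
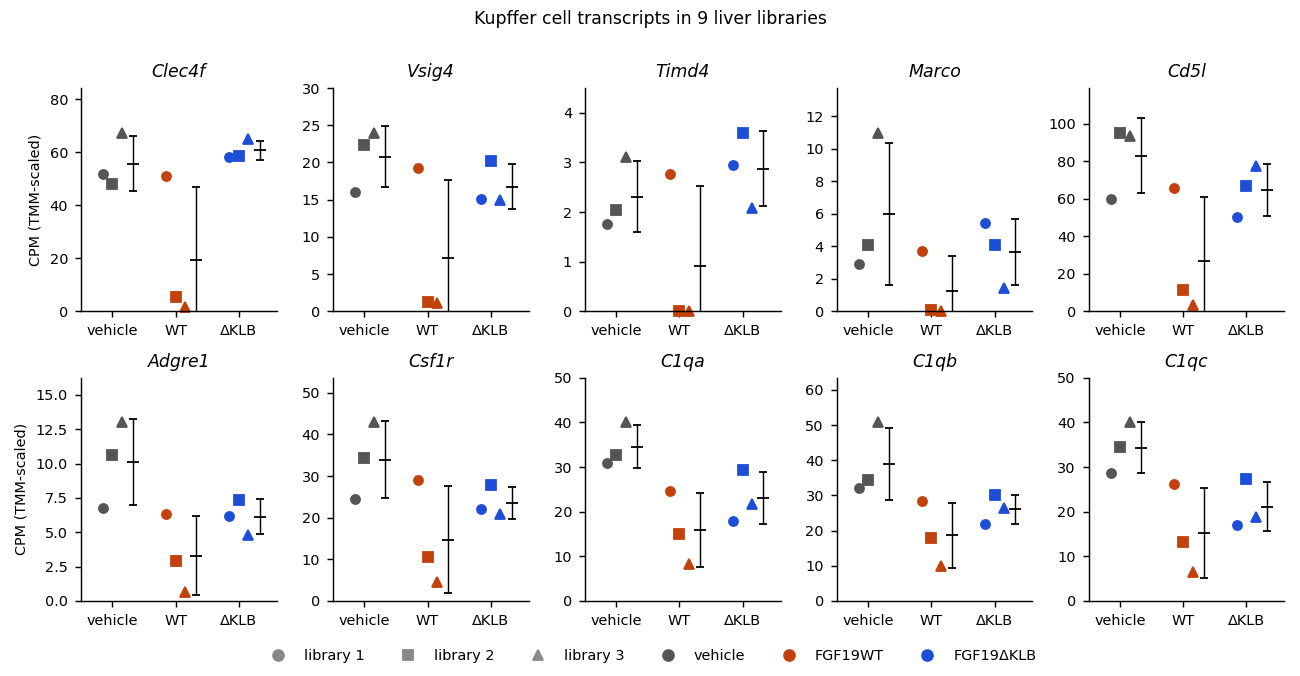
CPM of each of the 10 transcripts (y axis, linear, TMM-scaled) in the 3 vehicle, 3 FGF19WT and 3 FGF19ΔKLB libraries, with symbols for library numbers and the group mean with its SD (lower arms end at 0). FGF19WT libraries 2 and 3 are the lowest 2 of the 9 in each panel, while FGF19WT library 1 lies within or just under the vehicle values.

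The general macrophage genes of the set were lower in the same libraries, by smaller factors. Adgre1 (chromosome 17, 57358691 to 57483527), the gene of the F4/80 antigen, had 6.76, 10.6 and 13 CPM in vehicle and 6.36, 2.91 and 0.653 CPM with FGF19WT. With FGF19ΔKLB it had 6.2, 7.37 and 4.83 CPM. Each FGF19WT library lay below each vehicle library, though FGF19WT library 1 only just. Csf1r, the receptor for CSF1 and IL-34 on which macrophage survival depends, had 24.6, 34.4 and 42.9 CPM in vehicle. Its levels were 29.1, 10.5 and 4.48 CPM in the FGF19WT libraries and 22, 27.8 and 20.8 CPM in the FGF19ΔKLB libraries. It overlapped between vehicle and both other groups.

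C1qa, C1qb and C1qc encode the chains of C1q, the recognition part of the first complement component, which macrophages make. They lie side by side on chromosome 4 (136880129 to 136898803), a span of 18675 bases. C1qa in vehicle had 31, 32.6 and 40 CPM, in FGF19WT 24.6, 14.9 and 8.21 CPM and in FGF19ΔKLB 18, 29.4 and 21.8 CPM. C1qb in vehicle had 32, 34.3 and 50.8 CPM, in FGF19WT 28.3, 17.9 and 9.85 CPM and in FGF19ΔKLB 21.8, 30 and 26.4 CPM. C1qc in vehicle had 28.7, 34.4 and 40 CPM, in FGF19WT 26.3, 13.1 and 6.53 CPM and in FGF19ΔKLB 17, 27.3 and 18.9 CPM. For all 3 chains both treated groups lay wholly below vehicle, and FGF19WT library 1 lay below the lowest vehicle library and above FGF19WT libraries 2 and 3.

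Across the set, both FGF19WT libraries 2 and 3 lay below the other 7 libraries in 10 of 10 members. Of all genes tested, 19% did so. FGF19WT library 1 lay inside the vehicle range in 6 members and below it in 4, Adgre1 and the 3 C1q chains. FGF19WT library 3 was lower than FGF19WT library 2 in 9 of 10 members, with Timd4 at 0 in both.

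**Figure D2:**
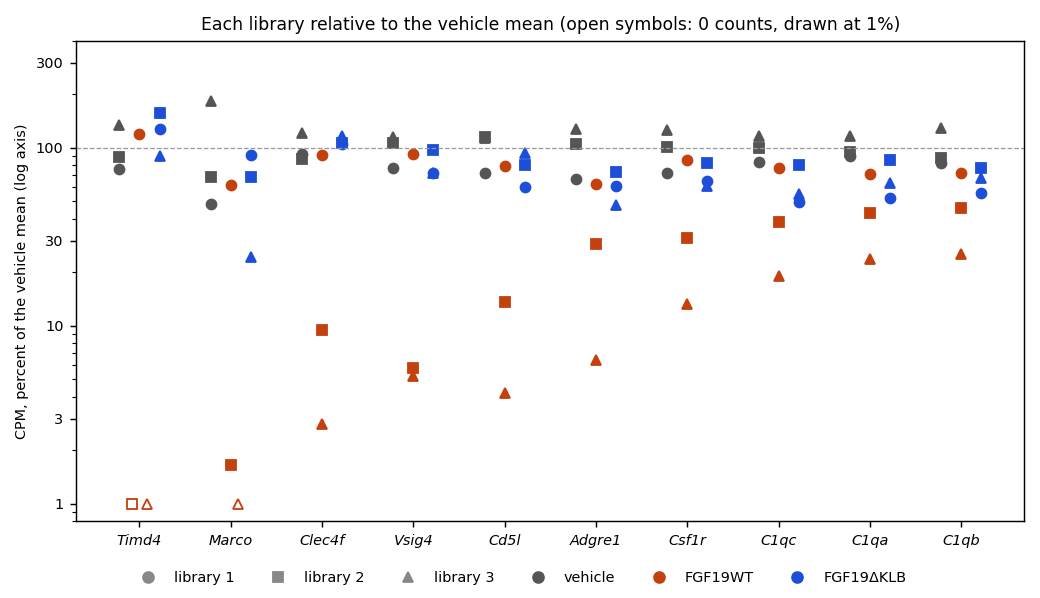
CPM of each transcript in each library as a percentage of the vehicle mean (y axis, log scale), with open symbols at 1% for 0 counts. In FGF19WT libraries 2 and 3 the values run from 0 for Timd4 through 9.48% and 2.79% for Clec4f to 45.9% and 25.2% for C1qb, while FGF19ΔKLB libraries lie between 24.3% and 156%.

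The comparison of FGF19WT with vehicle bears on what the wild-type form did to these transcripts. All 10 had lower means with FGF19WT than with vehicle, with fitted log2 fold changes of −2.24 to −1.06 and a median of −1.43, where the median over all genes was 0. None passed edgeR's quasi-likelihood test at an adjusted p of 0.05, a rule that called 0.11% of genes. An unadjusted p under 0.05 with a lower level was reached by 4 members, Adgre1 and the 3 C1q chains, and by 7.07% of genes. The 4 became 1 without vehicle library 3, and 2 without vehicle library 2, without FGF19WT library 2 or over the 6 libraries compared. In these 4 the groups did not overlap, and 11.6% of genes were separated as lower. DESeq2 gave no p for Clec4f and Vsig4 and called 0 of the other 8, where it called 9.73% of genes. It had 6 members at an unadjusted p under 0.05, all lower, and 23.1% of genes. Limma on log2(FPKM + 1) called 0 of the 10 and 0.643% of genes, with 9 members at an unadjusted p under 0.05, all lower, and 22.3% of genes.

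C1qa had a log2 fold change of −1.12 (SE 0.36, 95% interval −1.95 to −0.29, adjusted p = 0.168 in edgeR), from 34.5 ± 4.76 to 15.9 ± 8.23 CPM (SD, n = 3). Clec4f went from 55.6 ± 10.3 to 19.2 ± 27.5 CPM, a change of −1.53 with a far wider interval of −3.78 to 0.72 (adjusted p = 0.418). Timd4 had a change of −1.33 with an interval of −4.94 to 2.29 (adjusted p = 0.665). The largest standard errors, from 0.96 to 1.59, were those of Timd4, Marco, Clec4f and Vsig4, and in each of them FGF19WT library 1 lay within the vehicle range.

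Which FGF19WT libraries were fitted decided the outcome. Without FGF19WT library 1, all 10 members were called lower, in a fit that called 14.3% of genes as lower and 27.4% in either direction. Vsig4 then had a log2 fold change of −4.19 (adjusted p = 4.96e-05 in edgeR) and C1qb one of −1.5 (adjusted p = 0.0088). Without FGF19WT libraries 2 and 3, 0 of 10 were called (0.1% of genes) and 0 reached an unadjusted p under 0.05 (6.87% of genes). The changes were then −0.69 for Marco, −0.67 for Adgre1 and between −0.49 and −0.11 for the others except Timd4, at 0.26. The 1 FGF19WT library left in that fit is taken to vary as the vehicle and FGF19ΔKLB libraries do.

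**Figure D3:**
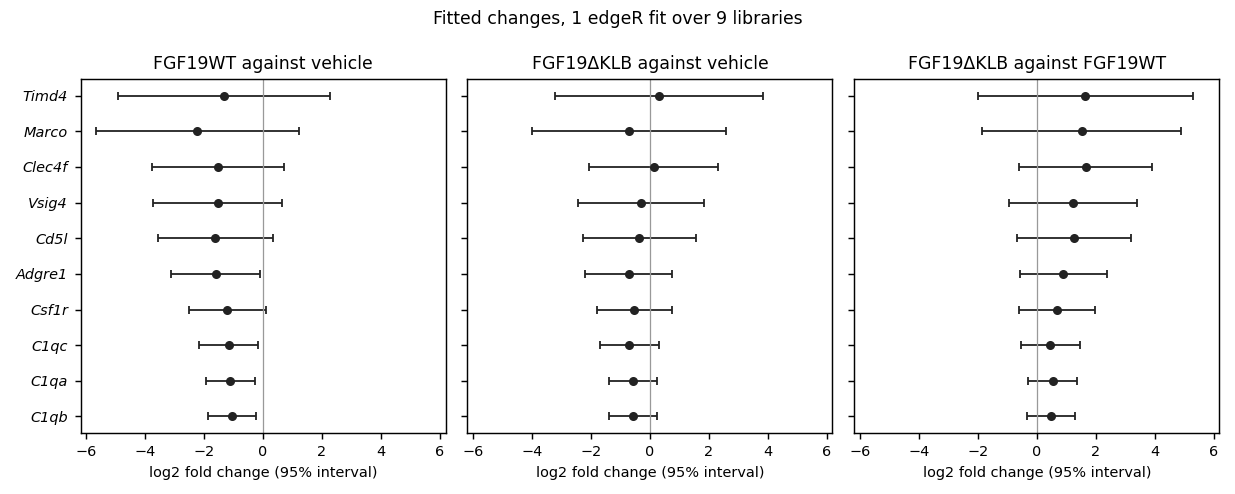
Fitted log2 fold changes (points) with 95% intervals (bars) of the 10 transcripts in the 3 comparisons, from 1 edgeR fit over 9 libraries. The intervals exclude 0 for Adgre1, C1qa, C1qb and C1qc in FGF19WT against vehicle, before adjustment over all genes, and include it for all 10 in the other 2 comparisons.

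The comparison of FGF19ΔKLB with vehicle bears on what the variant did. With FGF19ΔKLB 8 members had lower means than with vehicle, and the median log2 fold change was −0.56 against 0 over all genes. EdgeR called 0 of 10 at an adjusted p of 0.05, where 0.011% of genes were called (2 lower and 0 higher, or 7 lower and 3 higher with library totals in place of TMM factors), and 0 members had an unadjusted p under 0.05, as 8.35% of genes did. DESeq2 called 0 of the 8 members it gave a p for and 2.06% of genes, and limma called 0 of 10 and 0.476% of genes. Both had 0 members at an unadjusted p under 0.05, against 10.9% and 11.5% of genes. The 3 C1q chains did not overlap with vehicle, and 12.2% of genes were separated as lower. C1qc had the largest decrease of the 3, from 34.4 ± 5.65 to 21.1 ± 5.49 CPM (SD, n = 3), a log2 fold change of −0.7 with a 95% interval of −1.7 to 0.3 (adjusted p = 0.744).

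In a fit of the 6 vehicle and FGF19ΔKLB libraries alone, which leaves out the spread of FGF19WT, 5 members had lower levels at an unadjusted p under 0.05, as 8.85% of genes did. Their log2 fold changes were −0.72 for Adgre1, −0.53 for Csf1r, −0.58 for C1qa, −0.58 for C1qb and −0.71 for C1qc. Their adjusted p in edgeR lay between 0.149 and 0.269, so 0 of 10 were called, in a fit that called 1.68% of genes. With FGF19WT library 1 added to that fit, 5 members again had lower levels at an unadjusted p under 0.05 (8.15% of genes) and 0 were called (1.52% of genes). In the 6 libraries, the log2 fold changes of the other 5 were 0.12 for Clec4f, −0.31 for Vsig4, 0.31 for Timd4, −0.71 for Marco and −0.36 for Cd5l. Clec4f was close to the vehicle level by each route and its sign was not fixed, at 0.13 over 9 libraries, −0.06 with library totals in place of TMM factors and −0.03 on the FPKM scale. Library totals moved the median of all genes by −0.172 in this comparison and by −0.201 in that of FGF19ΔKLB with FGF19WT.

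The comparison of FGF19ΔKLB with FGF19WT sets both hormone forms against each other. All 10 members had higher means with FGF19ΔKLB than with FGF19WT, with log2 fold changes of 0.46 to 1.66 and a median of 1.06 against 0.01 over all genes. None was called by edgeR at an adjusted p of 0.05, nor was any of the 18142 genes (0%), and 0 of 10 had an unadjusted p under 0.05, as 12.5% of genes did. DESeq2 called 0 of 8 members and 4.65% of genes, with 0 members and 15.9% of genes at an unadjusted p under 0.05. Limma called 0 of 10 members and 0% of genes, with 4 members, all higher, and 17.5% of genes at an unadjusted p under 0.05. Clec4f had the largest change at 1.66, with a 95% interval of −0.6 to 3.91 (adjusted p = 0.521). Without FGF19WT library 1, 8 of 10 were called higher, all but Adgre1 and C1qb, in a fit that called 10.9% of genes as higher and 20.2% in either direction. Without FGF19WT libraries 2 and 3, 8 of 10 turned negative, between −0.32 and −0.02, and 0 were called (0.0352% of genes), with 0 at an unadjusted p under 0.05 (5.77% of genes). Both comparisons with vehicle share its 3 libraries, and both comparisons of FGF19ΔKLB share its 3 libraries.

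Among themselves, the C1q chains were the most alike. Likeness was taken as the root mean square difference between log2 CPM profiles over the 9 libraries, each centred on its mean. It was 0.11 between C1qa and C1qb, 0.13 between C1qa and C1qc and 0.19 between C1qb and C1qc. Csf1r was next to C1qc, at 0.26, and Adgre1 to Csf1r, at 0.3. Clec4f, Cd5l and Vsig4 formed a second close trio, with differences of 0.45 to 0.49. Timd4 and Marco were 0.8 apart and lay farthest from C1qb, at 2.25 and 2.12. FGF19WT libraries 2 and 3 had the lowest levels of each member. Over the other 7 libraries the C1q chains were still close, at 0.1 to 0.16, but Vsig4 was as near to Csf1r, at 0.12, as C1qa to C1qb. Clec4f, Cd5l and Vsig4 were 0.22 to 0.34 apart there and no longer formed a trio of their own. Vsig4 was 0.21 from each C1q chain, and Cd5l was 0.23 from C1qb. Timd4 was 0.48 from C1qb and Marco 0.67.

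Ratios within a library showed the same order. The ratio of C1qa to C1qb in FPKM ranged from 0.822 to 1.01 in vehicle libraries, from 0.87 to 0.908 in FGF19WT and from 0.863 to 1.02 in FGF19ΔKLB libraries. That of C1qc to C1qb was 0.443 to 0.565 in vehicle, 0.524, 0.413 and 0.373 with FGF19WT, and 0.403 to 0.514 in the FGF19ΔKLB libraries. Over the same libraries the level of C1qb ran from 9.85 to 50.8 CPM. Against Csf1r, Clec4f stood at 3.25 to 4.91 in vehicle, at 4.1, 1.17 and 0.807 with FGF19WT and at 4.94 to 7.3 with FGF19ΔKLB. Vsig4 stood at 2.17 to 2.55 in vehicle, at 2.57, 0.438 and 0.944 with FGF19WT and at 2.67 to 2.83 with FGF19ΔKLB. C1qa against Csf1r ran the other way, at 5.18 to 7.01 in vehicle and at 4.7, 7.86 and 10.2 with FGF19WT.

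**Figure D4:**
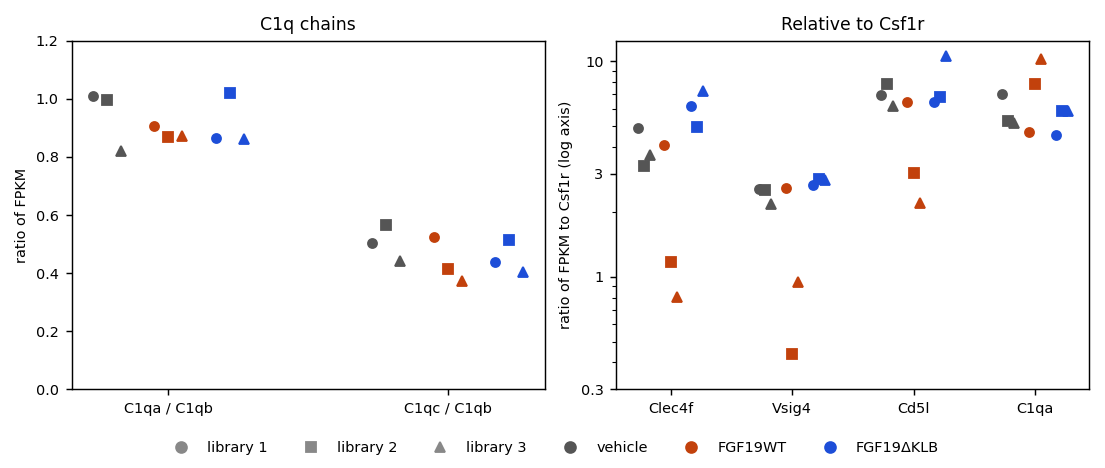
Ratios of FPKM within each library, on the left of C1qa and C1qc to C1qb (linear axis) and on the right of Clec4f, Vsig4, Cd5l and C1qa to Csf1r (log axis). FGF19WT libraries 2 and 3 are the lowest 2 for Clec4f, Vsig4 and Cd5l and the highest 2 for C1qa on the right, and differ little from the others for C1qa to C1qb on the left.

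The mean log2 level of Clec4f, Vsig4, Timd4, Marco and Cd5l less that of Adgre1, Csf1r and the C1q chains summarised this balance, on log2(FPKM + 0.1). It was −0.73, −0.7 and −0.53 in vehicle, −0.37, −2.87 and −2.49 with FGF19WT and 0.01, −0.33 and −0.33 with FGF19ΔKLB. Each FGF19ΔKLB library was thus above each vehicle library, as was FGF19WT library 1, and FGF19WT libraries 2 and 3 were below. How far below depended on the scale, as Timd4 and Marco were at or near 0 there. On log2(FPKM + 1) these libraries stood at −1.66 and −1.33, against −0.54 to −0.44 in vehicle. On log2 CPM they stood at −3.73 and −3.67, against −0.84 to −0.62 in vehicle. With Clec4f left out, FGF19ΔKLB library 3 and vehicle library 3 were both at −0.85. The score is built from the members and was not tested.

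Other transcripts of macrophages were read from lists of known genes. The list counts at an unadjusted p rest on the fit over 9 libraries unless stated. The spread in that fit includes FGF19WT libraries 2 and 3, also for FGF19ΔKLB against vehicle, so its counts for FGF19ΔKLB can be low. The shares of all genes with FGF19ΔKLB were higher without these libraries. List counts without them are given mainly for FGF19WT. Over all genes tested, 50.3% had negative changes with FGF19WT against vehicle and 49.8% with FGF19ΔKLB. An unadjusted p under 0.05 in edgeR was reached by 7.07% lower and 11.7% higher with FGF19WT, and by 3.72% lower and 4.64% higher with FGF19ΔKLB. Without FGF19WT libraries 2 and 3 these shares were 3.79% and 3.08% with FGF19WT, with 51.8% negative, and 8.15% and 7.65% with FGF19ΔKLB. Of 12 further resident macrophage genes, 11 had negative changes with FGF19WT against vehicle (median −0.78), 0 were called and 2 had an unadjusted p under 0.05, both lower. With FGF19ΔKLB 10 of the 12 were negative (median −0.22), and 1 had an unadjusted p under 0.05, lower. Without FGF19WT libraries 2 and 3, 3 of the 12 were negative with FGF19WT (median 0.22), 0 were called and 1 was lower at an unadjusted p under 0.05. The iron exporter gene Slc40a1 stood at 153, 127 and 127 CPM in vehicle, at 166, 39.2 and 28.2 CPM with FGF19WT and at 134, 135 and 105 CPM with FGF19ΔKLB. The haem oxygenase gene Hmox1 did not follow, at 44.2 CPM in FGF19WT library 2 and 11.8 CPM in FGF19WT library 3 against 16.4 to 21.4 CPM in vehicle.

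Genes of macrophages in general were less uniform. Of 14, 3 were below the other 7 libraries in both FGF19WT libraries 2 and 3, a share near the 19% of all genes that were. Another 1, Mertk, was above them in both, and the share of all genes above was not taken. The summed level of the 14 was 86.9% and 48.9% of the vehicle mean there, and 63.8% and 24.3% with Mertk left out. The 10 members stood at 24.2% and 11.2%, and between 21.1% and 27.9% and between 9.26% and 13.7% with any 1 of them left out. Of the 14, 12 had negative changes with FGF19WT (median −0.59) and 12 with FGF19ΔKLB (median −0.4). None was called in either by edgeR, and an unadjusted p under 0.05 was reached by 1 lower and 1 higher gene with FGF19WT and by 2 lower genes with FGF19ΔKLB. When FGF19WT libraries 2 and 3 were left out, 11 of the 14 were negative with FGF19WT (median −0.25), with 0 lower and 1 higher at an unadjusted p under 0.05. Mpeg1, which encodes the pore-forming perforin-2 and was the most abundant of them, had 100, 100 and 158 CPM in vehicle, 148, 43.6 and 26.6 CPM with FGF19WT and 186, 176 and 158 CPM with FGF19ΔKLB. The lysozyme gene Lyz2 stood at 60.8 CPM in FGF19WT library 2 and 15.5 CPM in FGF19WT library 3, against 50.8 to 95.4 CPM in vehicle. Mertk, a receptor for dying cells, stood at 88.1 and 84.1 CPM there and 17.5 to 25.2 CPM in the other 7 libraries (log2 fold change 1.55 with FGF19WT, adjusted p = 0.142 in edgeR). Of 10 genes of recruited and lipid-associated macrophages, 6 were negative with FGF19WT and 4 with FGF19ΔKLB. EdgeR called 0, with 1 lower gene at an unadjusted p under 0.05 with FGF19WT and 1 lower and 1 higher with FGF19ΔKLB. Of the 10, 8 were negative with FGF19WT when libraries 2 and 3 were left out (median −0.3 in both fits), with 1 lower at an unadjusted p under 0.05. Their sum was 203% of the vehicle mean in FGF19WT library 2 and 64.1% in FGF19WT library 3, and 179% and 31.7% with Fabp5 left out. Fabp5, which encodes a fatty acid carrier, stood at 4.65 to 10.2 CPM in vehicle, at 4.97, 23.1 and 16.9 CPM with FGF19WT and at 32.7, 16.2 and 75.5 CPM with FGF19ΔKLB. Gpnmb, a gene of lipid-laden macrophages, stood at 27.9 CPM in FGF19WT library 2 and between 1.28 and 8.39 CPM in the other 8.

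Factors that set macrophage identity were mixed. Of 12, 10 were negative with FGF19WT (median −0.71) and 7 with FGF19ΔKLB (median −0.19). EdgeR called 0, with 2 lower at an unadjusted p under 0.05 with FGF19WT and 0 with FGF19ΔKLB. In the fit without FGF19WT libraries 2 and 3, 5 of the 12 were negative with FGF19WT (median 0.03, with 0 lower and 1 higher at an unadjusted p under 0.05), and edgeR called 0 with FGF19WT and 1 lower with FGF19ΔKLB against vehicle. Id3, a regulator needed for Kupffer cells, stood at 36.5, 17.3 and 25.8 CPM in vehicle, 16.1, 4.86 and 2.54 CPM with FGF19WT and 15.9, 16.7 and 8.14 CPM with FGF19ΔKLB, without overlap between vehicle and either group (adjusted p = 0.197 and 0.754 in edgeR). Spi1, the gene of PU.1, stood at 4.65 to 5.92 CPM in vehicle and at 5.3, 2.73 and 1.41 CPM with FGF19WT. Nr1h3, which encodes the oxysterol receptor LXRα and is also made by hepatocytes, ranged from 64.7 to 89 CPM over the 9 libraries. Spic ranged from 0.987 to 2.33 CPM.

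Partners of the members were read in the same way. Of the ligands of Csf1r, Csf1 stood at 8.69, 11.4 and 11 CPM in vehicle and at 7.96, 6.84 and 9.51 CPM with FGF19WT. Il34 stood at 3.63, 2.83 and 2.73 CPM in vehicle, at 2.4, 0.296 and 0.0581 CPM with FGF19WT and at 1.35, 2.27 and 1.1 CPM with FGF19ΔKLB. Il34 was lower than vehicle in each treated library (adjusted p = 0.377 with FGF19WT and 0.874 with FGF19ΔKLB in edgeR). Gdf2, which encodes BMP9, stood at 14.1 to 15.9 CPM in vehicle, at 10.3, 0.605 and 0.0581 CPM with FGF19WT and at 7.16, 13 and 7.17 CPM with FGF19ΔKLB. Of 8 niche ligands past the filter on low counts, 7 were negative with each form, and edgeR called 0, with 0 at an unadjusted p under 0.05. Leaving out FGF19WT libraries 2 and 3, 5 of the 8 were negative with FGF19WT, again with 0 at an unadjusted p under 0.05.

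The proteases that join C1q in the first complement component, C1ra and C1s1, varied less than C1q. C1ra stood at 202 to 262 CPM in vehicle and at 258, 181 and 163 CPM with FGF19WT. C1s1 stood at 529 to 609 CPM in vehicle and at 622, 458 and 416 CPM with FGF19WT. Serping1, which encodes the inhibitor of both, stood at 774 to 1090 CPM in vehicle and at 872, 478 and 479 CPM with FGF19WT. Of 10 complement partners, 9 were negative with FGF19WT (median −0.44) and 2 with FGF19ΔKLB (median 0.15). EdgeR called 0, with 1 lower gene at an unadjusted p under 0.05 with FGF19WT and 0 with FGF19ΔKLB. With FGF19WT library 1 alone against vehicle, 4 of the 10 were negative (median 0.06), with 0 at an unadjusted p under 0.05. C3, whose fragments Vsig4 binds, had 3390 and 3070 CPM in FGF19WT libraries 2 and 3 against 6680 to 10400 CPM in vehicle. Neither comparison called any of 4 genes of IgM and its receptors, with 1 lower at an unadjusted p under 0.05 with FGF19WT and 0 with FGF19ΔKLB in edgeR. In the fit without FGF19WT libraries 2 and 3, 0 of the 4 were called and 1 was lower at an unadjusted p under 0.05 with FGF19WT. Ighm, the heavy chain of the IgM that carries the Cd5l protein, stood at 6.54 to 7.5 CPM in vehicle and at 11.9, 1.36 and 0.784 CPM with FGF19WT. Pigr, which carries polymeric antibody across epithelia, had 1560 to 1770 CPM in vehicle, 1700, 22.8 and 22.8 CPM with FGF19WT and 1010 to 1350 CPM with FGF19ΔKLB.

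Among other scavenger receptors, Cd36 stood at 196, 218 and 202 CPM in vehicle, at 149, 69.1 and 40 CPM with FGF19WT and at 120, 96.2 and 96.2 CPM with FGF19ΔKLB. Both groups lay below vehicle (adjusted p = 0.167 and 0.58 in edgeR). Scarb1, the HDL receptor, stood at 153, 193 and 199 CPM with FGF19WT against 112 to 140 CPM in vehicle. Hepatocytes also make Cd36 and Scarb1. Of the 8 receptors, 6 were negative with each form. EdgeR called 0, with 3 lower and 1 higher at an unadjusted p under 0.05 with FGF19WT and 1 lower with FGF19ΔKLB. The median log2 fold change with FGF19ΔKLB against vehicle was −0.41 over 9 libraries and also without FGF19WT libraries 2 and 3. When FGF19WT libraries 2 and 3 were left out, 5 of the 8 were negative with FGF19WT (median −0.05), with 2 lower at an unadjusted p under 0.05, and Cd36 was called lower with FGF19ΔKLB against vehicle, with a log2 fold change of −0.98 (adjusted p = 0.0193 in edgeR).

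Markers of other cell types were also low in FGF19WT libraries 2 and 3, and their part in the members' levels was not tested. Over all genes tested, 19% were below the other 7 libraries in both, and the share above was not taken. Of 10 sinusoidal endothelial genes, 8 were below the other 7 libraries in both, and none was at 0 in any library. Their summed level was 30.3% and 18.1% of the vehicle mean there (20.1% and 10.6% without Fcgr2b, an antibody receptor also made by macrophages), 114% in FGF19WT library 1 and 50.9% to 75.5% with FGF19ΔKLB. Stab2, a scavenger receptor of that endothelium, had 6.39 and 4.64 CPM there against 22.8 to 49.7 CPM in the other 7 libraries. Of 9 stellate cell genes 6 were below the other 7 libraries in both and 1, Reln, was above. Reln, which encodes the matrix protein reelin, stood at 175 and 212 CPM there and at 31.3 to 47.9 CPM in the other 7. The stellate sum was 63.2% and 58% of the vehicle mean there with Reln and 21.8% and 5.62% without it. In FGF19WT library 1 it was 75.2%, or 70.6% without Reln. With FGF19ΔKLB it was 39.2%, 74.5% and 37.8%, or 35.1%, 70.3% and 33.1% without Reln. The collagen-binding gene Dcn had 5.03 and 0.769 CPM in FGF19WT libraries 2 and 3 and 101 CPM in FGF19WT library 1. It had 35.3 to 102 CPM with FGF19ΔKLB and 156 to 186 CPM in vehicle.

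In FGF19WT libraries 2 and 3 the 10 hepatocyte genes were at 73.3% and 80.7%, with 6 of 10 below the other 7 libraries in both, as 19% of all genes were. With FGF19ΔKLB they were at 153% to 219%. Without the albumin gene Alb these values were 76%, 100% and 147% to 179%. Alb and Apoa1 made up 78.8% and 11.1% of the sum in FGF19WT library 2 and 74.5% and 16.2% in FGF19WT library 3. In these libraries Apoa1 stood at 11100 and 17800 CPM against 5190 to 9290 CPM in vehicle. Ass1 stood at 27.2 and 28.7 CPM there against 1080 to 1880 CPM in vehicle. Albumin alone took 8.6% to 13.5% of vehicle counts and 16.3% to 21.1% with FGF19ΔKLB. Of the blood cell lists, those of T and NK cells and of B and plasma cells were also low in the other treated libraries. For B and plasma cells in FGF19WT library 1 this rested on Igkc. B and plasma cell genes were at 3.25% and 2.54% in FGF19WT libraries 2 and 3, at 12.5% in FGF19WT library 1 and at 15.1% to 35.4% with FGF19ΔKLB. Without the antibody light chain gene Igkc these values were 29.4%, 24%, 155% and 50.3% to 77.6%. T and NK cell genes were at 15.7% and 20.5%, at 43% in FGF19WT library 1 and at 23.5% to 33.8% with FGF19ΔKLB, and 1 of 8 was below the other 7 libraries in both. Without Gzma, a granule protease gene, they were at 10.2% and 21.4%, with 27.1% in FGF19WT library 1. Neutrophil genes ranged widely, at 29.3%, 115% and 156% in vehicle, 42.9%, 24.1% and 8.88% with FGF19WT and 69.7%, 665% and 45.8% with FGF19ΔKLB, with Retnlg at 0 in FGF19WT libraries 2 and 3. Without the calprotectin gene S100a9 the latter were at 37.8% and 14.2%. Dendritic cell genes were at 86.9% in FGF19WT library 1 and at 57.5% to 110% with FGF19ΔKLB. In FGF19WT libraries 2 and 3 they were at 45.4% and 29.4%, or 33.8% and 19.1% without Xcr1. Of the 6, 1 was below the other 7 libraries in both. Cholangiocyte genes were at 32.2% and 72.9%, or 15.3% and 21.3% without the keratin gene Krt19, with Krt7 at 0 in both. Klrb1c and Cd209a were at 0 in both too, and each also in 3 of the other 7 libraries.

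**Figure D5:**
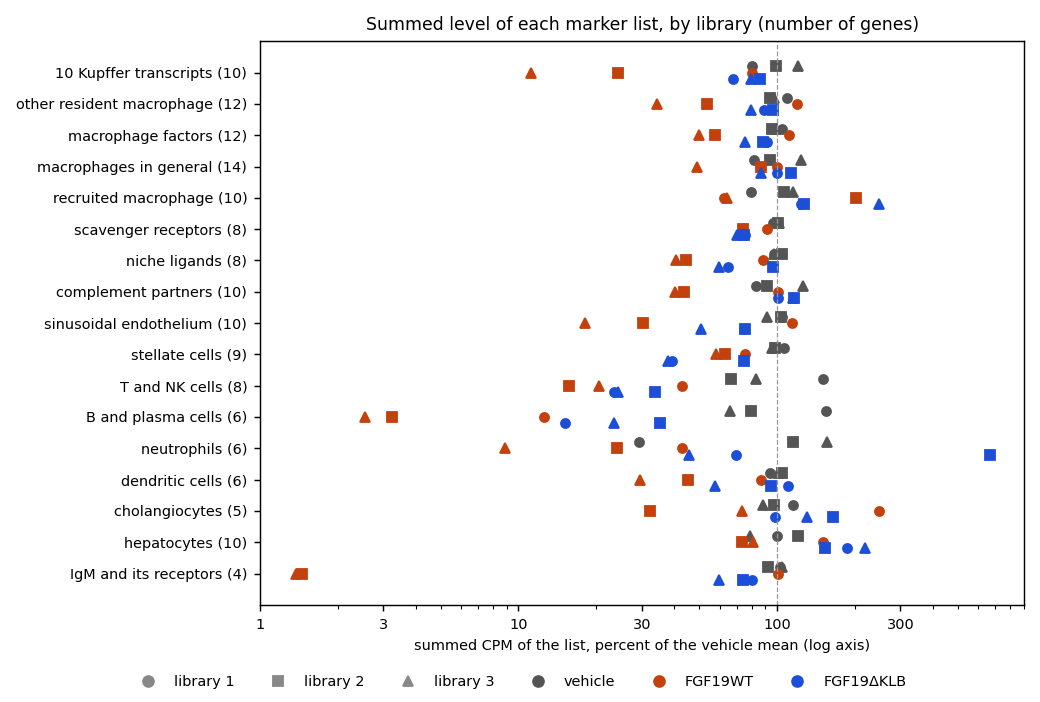
Summed CPM of each marker list per library as a percentage of its vehicle mean (x axis, log scale; number of genes tested in parentheses). In FGF19WT libraries 2 and 3 the 10 Kupffer transcripts stand at 24.2% and 11.2%, and sinusoidal endothelial genes at 30.3% and 18.1%. Hepatocyte genes stand at 73.3% and 80.7% there, and would be at 76% and 100% without Alb. Most of the hepatocyte sum is Alb and Apoa1, and 6 of its 10 genes were below the other 7 libraries in both. The list of macrophages in general, at 86.9% and 48.9%, would be at 63.8% and 24.3% without Mertk. The stellate list, at 63.2% and 58%, would be at 21.8% and 5.62% without Reln.

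The genes outside the set whose pattern was most like the mean of the 10 members were Gpm6a, C4a, Cadps2, Gm4788, Prkcz, Myo1d, Epb41l3 and Ifitm1, with root mean square differences of 0.17 to 0.3 over 9 libraries. The median over 13049 genes with a mean of at least 1 CPM was 1.45. Myo1d, an unconventional myosin, stood at 16.4, 21.5 and 21.7 CPM in vehicle, at 14.7, 3.68 and 1.19 CPM with FGF19WT and at 16.9, 15 and 10.3 CPM with FGF19ΔKLB. C4a, a copy of complement C4 close in sequence to C4b, stood at 43.3, 54.1 and 79.2 CPM in vehicle and at 51.3, 6.44 and 4.03 CPM with FGF19WT, and its counts are uncertain where reads could be split between the copies. All 8 share the low values of FGF19WT libraries 2 and 3, on which this choice rested. Over the other 7 libraries they ranked between 37 and 1318 of the 13049 genes, and the 8 likest were others: Cybb, Prkx, Dmpk, Tifab, Dok2, Rab3gap2, Hcls1 and Lilrb4a, at 0.05 to 0.1 against a median of 0.4. Cybb encodes the catalytic subunit of the phagocyte oxidase.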

How the data were processed

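The table deposited by the authors lists, for each gene, estimated counts and FPKM values of liver RNA from 9 mouse libraries. Per the submitters' processing notes, Bowtie 0.12.2, HISAT2 2.0 and StringTie 1.3.0 were used, with the build mm8 and no stated roles. The deposited positions do not follow that build: all 28517 identifiers, chromosomes and starts match GENCODE M21 (GRCm38), as do 25998 gene ends, and the deposited coordinates are given. Strand handling is not given in the sources used here. Csf1r overlaps the microRNA gene Mir6983, and the other 9 members overlap no annotated gene.

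The counts were fitted with edgeR 4.0.16 (R 4.3.3): its filter on low counts, TMM factors, a robust quasi-likelihood fit over 9 libraries with 1 term for group (6 residual degrees of freedom), and Benjamini-Hochberg adjustment over 18142 genes. Intervals are 95% and come from that fit. The procedure was tested on simulated data, where it recovered 48% to 59% of genes changed 4-fold and 80% to 83% of those changed 8-fold. The simulated data held no libraries set apart as FGF19WT libraries 2 and 3 were. Alternatives used DESeq2 1.42.0 and limma 3.58.1. Count totals of 65.1 to 73.3 M stand for about 16.3 to 18.3 M read pairs, and the tests rest on the spread of 3 libraries per group. The members and the 16 other lists (142 genes) were chosen with earlier results of these data known. Named beside the 10 members are, per list, the 3 genes of highest mean CPM, 10 partners and factors fixed by name, and the 8 genes of likest pattern. Some genes of these lists are not reported here by name. The markers Retnlg, Krt7, Klrb1c, Cd209a and Ass1, and the 8 likest genes over 7 libraries, were named after their values were seen. The list values without 1 gene or without FGF19WT libraries 2 and 3 were chosen after seeing the data.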

Additional observations from a re-analysis of the deposited data

How the results depend on the processing

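No member was called under any alternative for FGF19ΔKLB against vehicle. For the other 2 comparisons members were called in 1 alternative, the fit without FGF19WT library 1. Over the fits that leave out 1 library, the members called ranged from 0 to 10 for FGF19WT against vehicle and from 0 to 8 for FGF19ΔKLB against FGF19WT, while the genes called ranged from 0 to 5221, from 0 to 172 for FGF19ΔKLB against vehicle and from 0 to 3846. For FGF19WT against vehicle, where 20 genes were called, the count was 9 with library totals, 1743 with DESeq2, 69 with limma on log2(FPKM + 1), 1 over the 6 libraries compared and 1 with a replicate block. For FGF19ΔKLB against vehicle, with 2, it was 10 with library totals, 11 without a filter, 13 with a filter of 5 CPM, 370 with DESeq2, 51 with limma, 292 over 6 libraries, 0 with a replicate block, 4 with counts divided by 4 and 303 without FGF19WT libraries 2 and 3. For FGF19ΔKLB against FGF19WT, with 0, it was 834 with DESeq2, 1 over 6 libraries and 7 without FGF19WT libraries 2 and 3. The cause of these shifts was not tested.

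Of the member fold changes, 12 changed sign. Without FGF19WT libraries 2 and 3, Timd4 was 0.26 against vehicle, and FGF19ΔKLB against FGF19WT gave −0.2 for Vsig4, −0.02 for Marco, −0.03 for Cd5l, −0.06 for Adgre1, −0.31 for Csf1r, −0.1 for C1qa, −0.12 for C1qb and −0.32 for C1qc. For FGF19ΔKLB against vehicle, Clec4f was −0.06 with library totals and −0.03 with limma, and Marco 0.06 without vehicle library 3, in a range of −1.11 to 0.06 over the fits that leave out 1 library. The filter of 5 CPM removed Timd4 and Marco. DESeq2 gave no p for Clec4f and Vsig4. Members at an unadjusted p under 0.05 for FGF19ΔKLB against vehicle, 0 over 9 libraries, numbered 5 over 6 libraries and without FGF19WT libraries 2 and 3, 3 without FGF19WT library 3 and 1 without FGF19WT library 1. The replicate block changed no call of a member, with 0 in each comparison. Deviations of same-numbered libraries from their group means correlated between −0.05 and 0.15, so the numbers were not taken as pairs. Timd4 and Marco had the fewest read pairs of the 10 in each library, and the part of depth in their spread was not tested.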
